A study of Homo sapiens with 8 samples.

Results

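The 2 by 2 interaction between PMA and Ceefourin 2 was measured in MEG-01, a human cell line established from a megakaryoblastic leukaemia, from messenger RNA of 8 libraries out of the 8 in the series. The groups were PMA plus Ceefourin 2 (PMA at 100 nM with Ceefourin 2 at 20 µM, 48 h), PMA (100 nM, 48 h), Ceefourin 2 alone (48 h, its dose not stated in the labels) and untreated cells, for which the labels give no time and no vehicle. Each group held 2 libraries of the same line, and nothing in the labels says that they came from separate cultures, so p-values measure only the spread between these libraries, which may be technical. For each gene the interaction was the Ceefourin 2 effect in PMA-treated cells minus the Ceefourin 2 effect in cells without PMA, both as log2 fold changes. An interaction of 0 means that the effects of the agents add up on the log scale. A positive one means that Ceefourin 2 raised the gene more, or lowered it less, when PMA was present, and a negative one means the opposite. Below, "with PMA" and "without PMA" name the background in which the Ceefourin 2 effect was taken, and values of a group are given as replicates 1 and 2.

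PMA is a phorbol ester that takes the place of diacylglycerol on protein kinase C and drives MEG-01 cells from a proliferating megakaryoblast towards a megakaryocyte with platelet receptors and granules. Ceefourin 2 inhibits ABCC4 (also called MRP4), a membrane exporter of cyclic nucleotides, prostaglandins and thiopurine nucleotides that is abundant in megakaryocytes and platelets. The gene functions described below are ones in which such a cell can change: sterol and fatty acid synthesis, which is governed by membrane-bound SREBP factors that are released when sterols are low, protein folding in the endoplasmic reticulum, which is raised by the unfolded protein response, and the megakaryocytic, erythroid and mast cell programs, which share GATA factors.

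Libraries held between 44430292 and 89950886 expected counts. Of 10 megakaryoblast markers, 9 reached at least 1 CPM (counts scaled to library size with TMM factors) in some library, but PF4, a defining platelet granule chemokine, was at or near 0 in all 8. The share of mitochondrially encoded transcripts was 8.32% and 4.94% in PMA plus Ceefourin 2, 9.61% and 4.53% in PMA, 2.77% and 3.11% in Ceefourin 2, and 2.55% and 3.94% in untreated cells. Ceefourin 2 replicate 2 stood apart in targets of the stress factor ATF4: the 28 tested genes of that list summed to 6797 CPM there and to between 2575 and 3982 CPM in the other 7 libraries. The medians of the leading lists are given without this library below.

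With the replicate number as a block, edgeR called 247 of 17314 tested genes (1.43%) at a Benjamini-Hochberg adjusted p below 0.05, of which 114 (0.658%) had a positive and 133 (0.768%) a negative interaction. The interaction was at least 2-fold in 44 and 39 of them. These calls depended on the block. Without it edgeR called 2 positive genes, S100A4 and APOL3 (adjusted p = 0.047 each), and 0 negative ones, with 1234 genes at an unadjusted p below 0.05, against 2441 (14.1% of those tested) with the block. The block lowered the common biological coefficient of variation to 8.28%, against 13.6% without it. Leaving out either untreated library left 0 calls (lowest adjusted p 0.066 without replicate 1 and 0.0869 without replicate 2), while 1967 and 1625 genes had an unadjusted p below 0.05. All 247 genes had the same sign within replicate number 1 and within replicate number 2, and the same sign in each of 18 alternative analyses. Calling genes for a small spread between replicates makes such agreement likely, and the alternatives refit the same 8 libraries or part of them. The kept sign is therefore not independent support for the calls. In edgeR, every called gene named below passes the threshold only with the block, other than S100A4 and APOL3.

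ABCC4 itself (ENSG00000125257.16, chromosome 13, 95019829 to 95301475, GRCh38) showed no detectable departure from additivity. Its level was 697 and 632 CPM in PMA plus Ceefourin 2, 594 and 545 in PMA, 387 and 363 in Ceefourin 2, and 344 and 305 in untreated cells. Both libraries with Ceefourin 2 lay above both without it in each background. Ceefourin 2 raised it by 0.22 (SE 0.05, adjusted p = 0.0306) on the log2 scale with PMA and by 0.21 (SE 0.05, adjusted p = 0.0384) without PMA, and the interaction was 0.01 (SE 0.07, adjusted p = 0.969). In CPM the mean steps were 95.4 with PMA and 50.9 without.

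**Figure D1:**
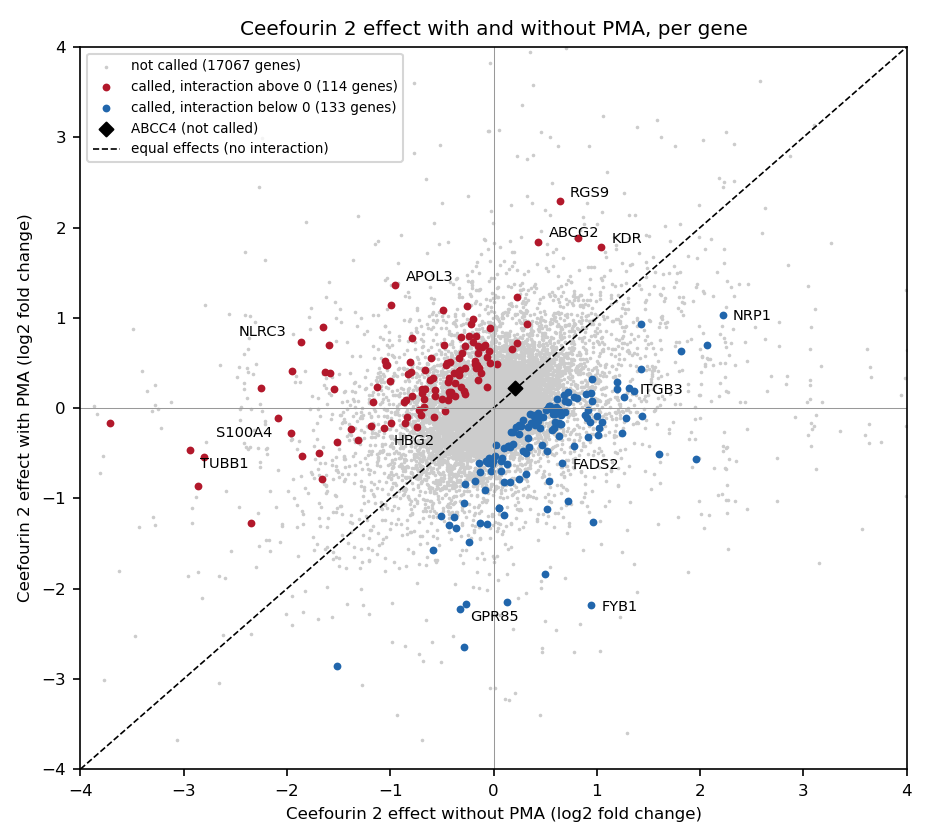
Ceefourin 2 effect with PMA (vertical axis, log2 fold change of PMA plus Ceefourin 2 over PMA) against the effect without PMA (horizontal axis, Ceefourin 2 over untreated) for each tested gene. Grey points are genes that were not called, red the 114 with a positive and blue the 133 with a negative interaction, the dashed line marks equal effects, and 81 genes lie outside the plotted range. ABCC4 lies on the line, FYB1 far below it and APOL3 far above it.

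The Ceefourin 2 effect itself was called for 8.56% of all tested genes with PMA and for 8.26% without. Called interactions took 4 forms. Among the 114 positive genes, 53 changed with Ceefourin 2 only without PMA, and all 53 fell there. A further 33 changed only with PMA, and all rose. In 20 the directions were opposite, a rise with PMA and a fall without it, and in 8 both effects were called in the same direction (5 falls and 3 rises of different size). Among the 133 negative genes, 65 rose with Ceefourin 2 alone and were not called with PMA, 47 fell only with PMA, 11 fell with PMA and rose without it, and 10 moved the same way in both (4 falls and 6 rises). "Changed" here refers to the threshold in each background, and the interaction itself is the test of their difference. The 2 Ceefourin 2 effects come from separate libraries, and across the 17314 genes their Pearson correlation was 0.30 (Spearman 0.34), a description across genes that are not independent.

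Functions were described with 54 gene lists, of which 34 held at least 1 called gene. The lists and their members were chosen with earlier results of these data known. Shares of called list members, set beside those of all genes here and below, therefore describe the lists and do not test them. The called genes in any list numbered 83, with 31 positive and 52 negative, and the other 164 were in none. Over all tested genes the median interaction was 0.00. Lists at the ends of the range were cholesterol and fatty acid synthesis (median -0.56), endoplasmic reticulum chaperones (median -0.46) and globins and erythroid genes (median 0.64). Next on the negative side came immediate early and MAPK feedback genes (median -0.34), with 27 of 33 values negative. Of these 33, edgeR called 1 (3.03%, against 1.43% of all tested genes) and DESeq2 called 7 (4.25% of all tested genes). An unadjusted p below 0.05 in edgeR was found for 14 of them, against 14.1% of all. The median kept its sign in all alternatives for 25 of the 54 lists, among them the 3 at the ends and the immediate early list (-0.43 to -0.27).

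**Figure D2:**
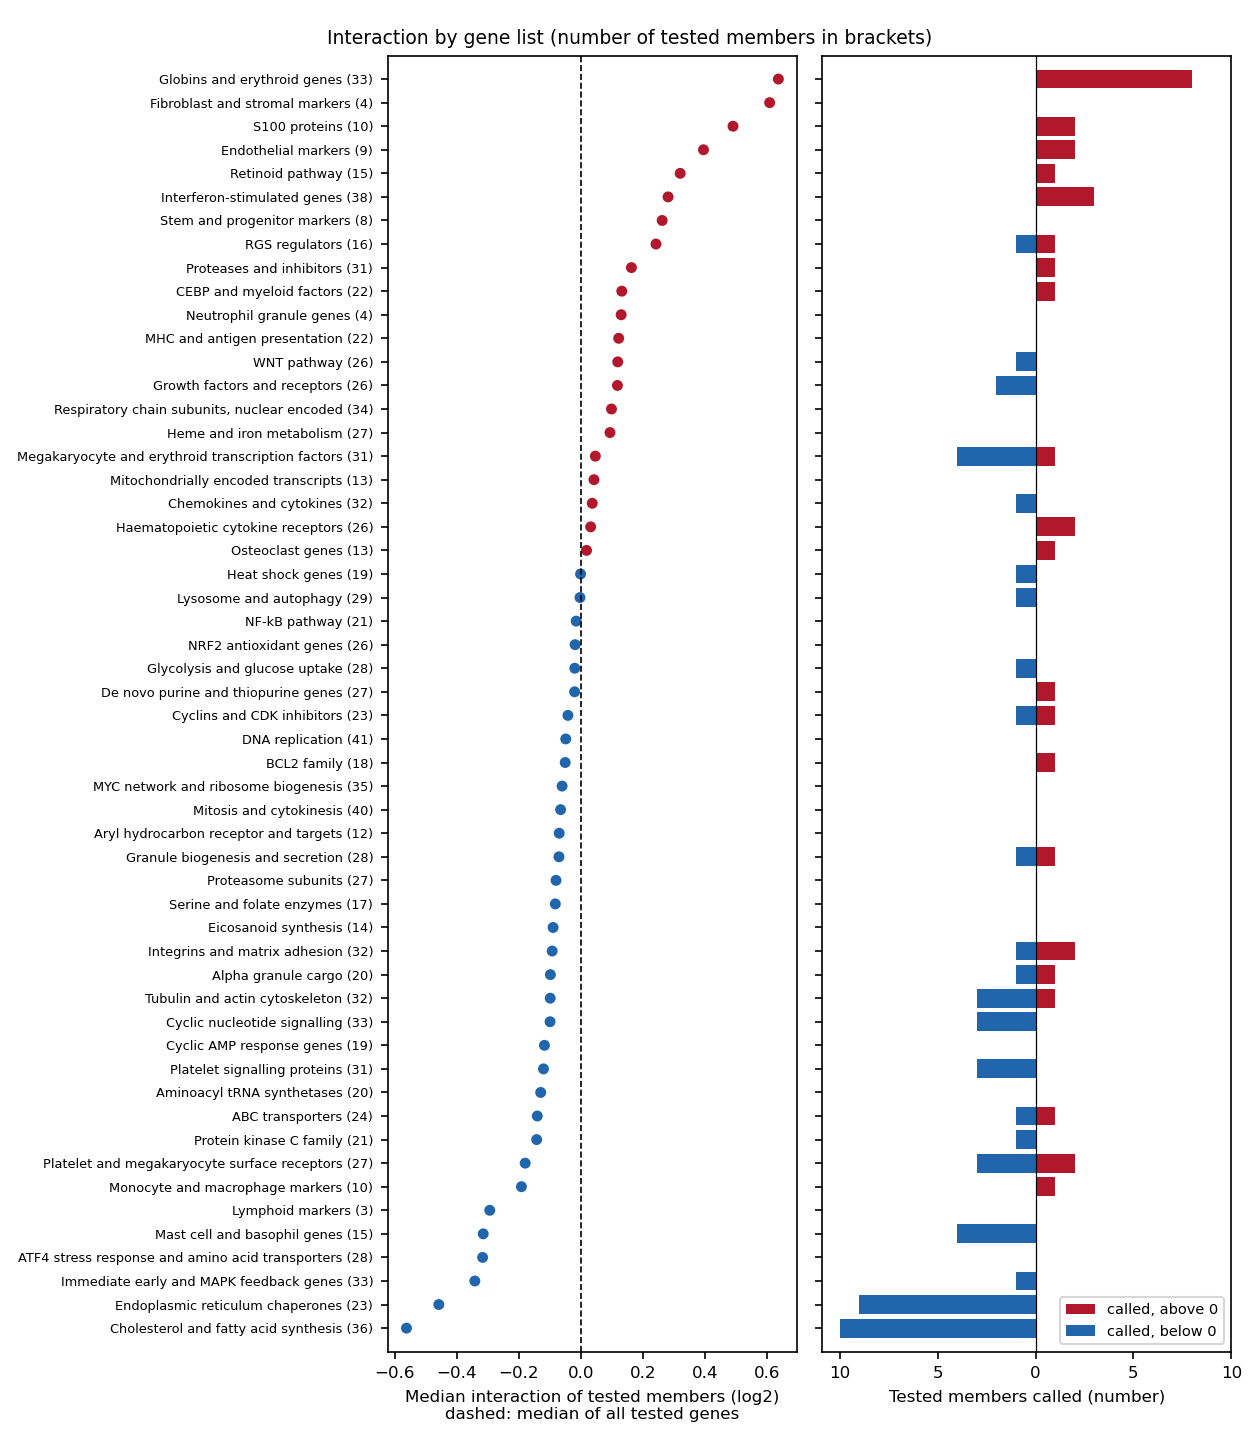
Median log2 interaction of the tested members of each gene list (left, number of tested members in brackets) and the number of members called above or below 0 (right). The dashed line is the median of all tested genes. Erythroid genes stand at the top with 8 positive calls, and endoplasmic reticulum chaperones (9 negative calls) and cholesterol and fatty acid synthesis (10 negative calls) at the bottom. The top rank depends on HBZ, which had 0 counts in the PMA and Ceefourin 2 groups. Without HBZ the erythroid median was 0.597, beside 0.607 for the 4 tested fibroblast and stromal markers.

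Most sterol and fatty acid genes had a called rise with Ceefourin 2 in cells without PMA, and none of them had a called rise in cells with PMA. Of 36 tested genes, 10 had a called negative interaction and 0 a positive one, against 0.768% and 0.658% of all genes, and 34 of the 36 values were negative. With PMA, 0 rose and 3 fell (4.74% and 3.82% of all tested genes), with a median effect of -0.04. Without PMA, 24 rose and 1 fell (4.66% and 3.6% of all tested genes), with a median effect of 0.56. Without the block, 21 of the 36 had a negative interaction at an unadjusted p below 0.05, against 3.59% of all genes.

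FADS2, a desaturase of the polyunsaturated fatty acid pathway (ENSG00000134824.14, chromosome 11, 61792980 to 61867354), had the largest interaction of the list. It measured 464 and 448 CPM in PMA plus Ceefourin 2, 672 and 722 in PMA, 729 and 849 in Ceefourin 2, and 479 and 518 in untreated cells. The inhibitor thus lowered it in both replicates with PMA and raised it in both without PMA, and in neither background did the libraries overlap. The effects were -0.61 (SE 0.07, adjusted p = 0.00244) with PMA and 0.66 (SE 0.07, adjusted p = 0.00199) without, and the interaction was -1.27 (SE 0.10, adjusted p = 0.00696). Its neighbour FADS1, another desaturase of the same pathway that was named after its values were seen, also had opposite effects, -0.43 (SE 0.07, adjusted p = 0.013) with PMA and 0.35 (SE 0.07, adjusted p = 0.0293) without.

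The sterol enzymes showed a rise in the absence of PMA with little change in its presence. LSS, which closes the sterol ring to form lanosterol, measured 46.5 and 41.5 CPM in PMA plus Ceefourin 2, 53.7 and 45.7 in PMA, 165 and 154 in Ceefourin 2, and 110.1 and 93.7 in untreated cells. The 2 PMA groups overlapped, while both Ceefourin 2 libraries lay above both untreated ones. The interaction of LSS was -0.82 (SE 0.08, adjusted p = 0.0111). SQLE, the squalene epoxidase that precedes it, had 2695 and 2103 CPM with both agents and 2659 and 2219 with PMA, against 1113 and 933 with Ceefourin 2 and 740.3 and 591 in untreated cells, and an interaction of -0.65 (SE 0.07, adjusted p = 0.0127). Called members outside the naming rule, named here with their values known, included INSIG1, the protein that holds SREBP in the endoplasmic reticulum (-0.74, SE 0.09), DHCR7, a late reductase of the pathway (-0.94, SE 0.11), the isoprenoid enzymes FDPS (-0.54, SE 0.08) and IDI1 (-0.53, SE 0.08), and the stearoyl-CoA desaturase SCD (-0.73, SE 0.10). HMGCS1, which acts early in the pathway and is also outside the rule, had a value in the same direction that did not pass (-0.87, SE 0.16, adjusted p = 0.0562).

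Chaperones and oxidoreductases of the endoplasmic reticulum gave the same form. Of 23 tested genes, 9 had a called negative interaction and 0 a positive one, against 0.768% and 0.658% of all genes. Negative values numbered 21 of the 23. Without the block, 13 were negative at an unadjusted p below 0.05, against 3.59% of all genes. With PMA, 1 gene rose (EDEM1) and 1 fell (P4HB), against 4.74% and 3.82% of all tested genes, and the median effect was 0.08. Without PMA 16 rose and 0 fell, against 4.66% and 3.6% of all tested genes, and the median effect was 0.56.

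PDIA4, a protein disulphide isomerase, had 85.5 and 79.9 CPM in PMA plus Ceefourin 2, 81.6 and 76.9 in PMA, 177 and 166 in Ceefourin 2, and 112 and 96.7 in untreated cells. Both Ceefourin 2 libraries lay above all 6 others, and the libraries of the PMA groups overlapped. Its effect was 0.06 (SE 0.06) with PMA and 0.72 (SE 0.06) without, an interaction of -0.66 (SE 0.08, adjusted p = 0.0165). MANF, a secreted folding factor of the stress response, had 59.1 and 52.1 CPM with both agents and 56.3 and 46.8 with PMA, against 86.1 and 70.5 with Ceefourin 2 and 49.2 and 40.3 in untreated cells (interaction -0.70, SE 0.08, adjusted p = 0.0154). DNAJB11, a co-chaperone of the main reticulum chaperone HSPA5, had 66.5 and 67.7 CPM with both agents and 67.8 and 65.0 with PMA, against 67.3 and 65.2 with Ceefourin 2 and 44.1 and 43.1 in untreated cells. For DNAJB11 the untreated cells were thus the low group, and the other 3 groups overlapped. Its interaction was -0.59 (SE 0.08, adjusted p = 0.0202). HSPA5 had an interaction of -0.58 (SE 0.13, adjusted p = 0.0857) and did not pass, and P4HB, a disulphide isomerase and collagen hydroxylase subunit, fell with PMA and rose without it, with effects of -0.21 (SE 0.05, adjusted p = 0.0492) with PMA and 0.21 (SE 0.05, adjusted p = 0.047) without. Both were named after their values were seen, as were the called isomerases PDIA3 (-0.52, SE 0.09) and PDIA6 (-0.45, SE 0.08).

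Promoters of 3 of the called chaperone genes carry the endoplasmic reticulum stress element, the sequence on which ATF6 and NF-Y act in the unfolded protein response, and are shown because the list stood at the lower end. The genes were chosen after their values and their sequences were seen. The element was searched on both strands as CCAAT followed after 9 bases by CCACG, in the RefSeq window of 300 bases (250 before to 50 after the start, GRCh38.p14), and its letters can overlap those of the E-box and the aryl hydrocarbon receptor core searched below. It was found in 6 of 22 matched promoters of the list (27.3%) and in 15 of 11112 promoters of tested genes (0.135%). The element was added to the search after the data were seen, as one that belongs to this class of genes. The contrast between these shares is therefore not a test of any pathway in these data. Printed are the 250 bases before the start, 5′ to 3′, with the CCAAT and CCACG letters (or their reverse complement) in capitals:
HSP90B1 (chr12:103930160-103930409, plus strand): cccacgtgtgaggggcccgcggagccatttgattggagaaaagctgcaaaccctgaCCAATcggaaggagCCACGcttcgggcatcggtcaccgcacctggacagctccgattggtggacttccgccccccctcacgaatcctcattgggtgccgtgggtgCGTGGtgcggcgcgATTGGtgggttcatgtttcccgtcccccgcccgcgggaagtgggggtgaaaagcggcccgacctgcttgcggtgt
CALR (chr19:12938359-12938608, plus strand): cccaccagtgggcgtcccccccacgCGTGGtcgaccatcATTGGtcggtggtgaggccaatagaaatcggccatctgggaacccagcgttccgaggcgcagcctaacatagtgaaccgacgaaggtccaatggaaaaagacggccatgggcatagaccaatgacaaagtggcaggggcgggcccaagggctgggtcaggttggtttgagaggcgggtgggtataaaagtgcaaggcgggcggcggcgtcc
CRELD2 (chr22:49918384-49918633, plus strand): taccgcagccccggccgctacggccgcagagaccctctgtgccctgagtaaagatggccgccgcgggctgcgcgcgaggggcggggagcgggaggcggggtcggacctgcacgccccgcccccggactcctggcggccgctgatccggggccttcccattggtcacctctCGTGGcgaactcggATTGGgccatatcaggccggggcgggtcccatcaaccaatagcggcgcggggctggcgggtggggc
HSP90B1 holds 2 elements and the other genes 1 each. HSP90B1, the reticulum member of the HSP90 family, had an interaction of -0.65 (SE 0.10, adjusted p = 0.0264), CALR, a calcium-binding lectin chaperone, of -0.51 (SE 0.08, adjusted p = 0.0284), and CRELD2, a secreted stress-induced protein, of -0.77 (SE 0.13, adjusted p = 0.0379). MANF, PDIA4, DNAJB11, PDIA6 and P4HB were called as well and hold no match in their windows, and HSPA5, CANX and XBP1 hold a match and were not called. A match is a description of the letters only.

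**Figure D3:**
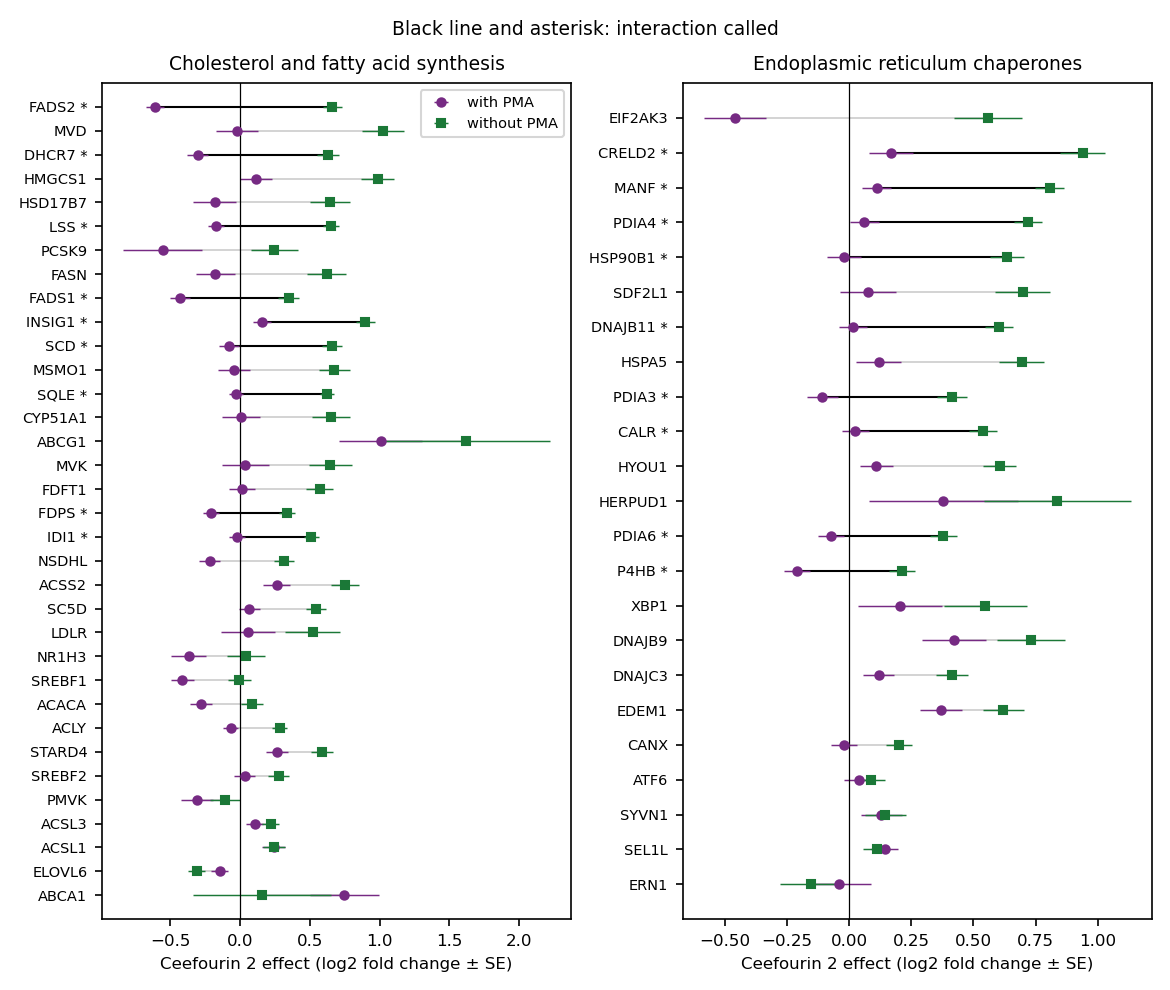
Ceefourin 2 effect (log2 fold change with standard error) with PMA (purple circles) and without PMA (green squares) for 34 of the 36 tested genes of the sterol and fatty acid list (left) and all 23 of the endoplasmic reticulum chaperone list (right), ordered by interaction with the most negative at the top. Black lines and asterisks mark called interactions, 9 in each panel. Without PMA most squares lie right of 0, and with PMA most circles lie near 0.

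Stress genes of the ATF4 pathway, which acts on amino acid supply and on the integrated stress response, had 27 of 28 negative values and a median of -0.32, with 0 called by edgeR and 0 by DESeq2 (2 of 28 at an unadjusted p below 0.05 in edgeR, against 14.1% of all tested genes). Without Ceefourin 2 replicate 2 the median was 0.26, with 22 positive values, and without Ceefourin 2 replicate 1 it was -0.91, with 6 called, so the direction depended on which Ceefourin 2 library was used. CHAC1, an ATF4 target named after its values were seen, had 6.14 and 212 CPM in the Ceefourin 2 replicates and 8.81 and 61.2 in the untreated ones. For comparison, without Ceefourin 2 replicate 2 the median was -0.47 for the sterol list (8 called), -0.48 for the chaperone list (4 called) and 0.54 for the erythroid list (6 called).

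Most erythroid genes fell with Ceefourin 2 in cells without PMA, and fewer passed the threshold in cells with PMA. Of 33 tested genes, 8 had a called positive interaction and 0 a negative one, against 0.658% and 0.768% of all genes. Positive values numbered 27 of 33, and 18 were positive at an unadjusted p below 0.05 without the block, against 3.53% of all genes. With PMA 2 rose and 11 fell, against 4.74% and 3.82% of all tested genes (median of the list -0.31). Without PMA 0 rose and 27 fell, against 4.66% and 3.6% of all tested genes (median of the list -1.17). The median interaction was 0.60 when HBZ, which had 0 counts in the PMA and Ceefourin 2 groups, was left out. In bulk RNA, fewer cells with a transcript and less of it per cell cannot be told apart.

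HBG2, a fetal globin gene, had 9096 and 11992 CPM in PMA plus Ceefourin 2, 11130.0 and 13288 in PMA, 1021 and 1223 in Ceefourin 2, and 2068 and 2646 in untreated cells. The 2 PMA groups overlapped and the 2 groups without PMA did not. The effect was -0.22 (SE 0.05, adjusted p = 0.0393) with PMA and -1.07 (SE 0.05, adjusted p = 0.000123) without, an interaction of 0.85 (SE 0.07, adjusted p = 0.00868). HBG2 has a near copy, HBG1 (interaction 1.00, SE 0.22, adjusted p = 0.0832, outside the rule), and its annotated span reaches across neighbouring globin genes, so the division of reads among them is uncertain. ALAS2, the first enzyme of haem synthesis in red cell precursors, had 17.4 and 23.4 CPM with both agents and 22.1 and 25.5 with PMA, against 5.61 and 6.57 with Ceefourin 2 and 13.8 and 17.98 in untreated cells, an interaction of 1.15 (SE 0.13, adjusted p = 0.0136). RHCE, a blood group antigen gene with a near copy in RHD, had 2.44 and 3.57 CPM in PMA plus Ceefourin 2, 3.37 and 5.17 in PMA, 5.11 and 6.27 in Ceefourin 2, and 16.1 and 20.8 in untreated cells, and an interaction of 1.20 (SE 0.16, adjusted p = 0.022). SLC4A1, the anion exchanger of the red cell membrane, had 0.609 and 0.629 CPM with both agents and 0.458 and 0.454 with PMA, against 1.48 and 2.37 with Ceefourin 2 and 4.97 and 6.93 in untreated cells (interaction 2.03, SE 0.33, adjusted p = 0.0349). The called members outside the naming rule were HBA2 (1.13, SE 0.16), which shares reads with HBA1, the glycophorin GYPB (0.96, SE 0.17), which has close copies, and the ankyrin ANK1 (0.77, SE 0.11). CA2, a carbonic anhydrase, differed in form: it rose with PMA (0.47, SE 0.08, adjusted p = 0.012) and was -0.16 (SE 0.08, adjusted p = 0.27) without. The erythropoietin receptor EPOR, in another list, had an interaction of 0.94 (SE 0.13, adjusted p = 0.0236) with 11.9 and 14.3 CPM with both agents and 11.3 and 13.1 with PMA, against 7.48 and 9.02 with Ceefourin 2 and 12.6 and 17.4 in untreated cells.

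**Figure D4:**
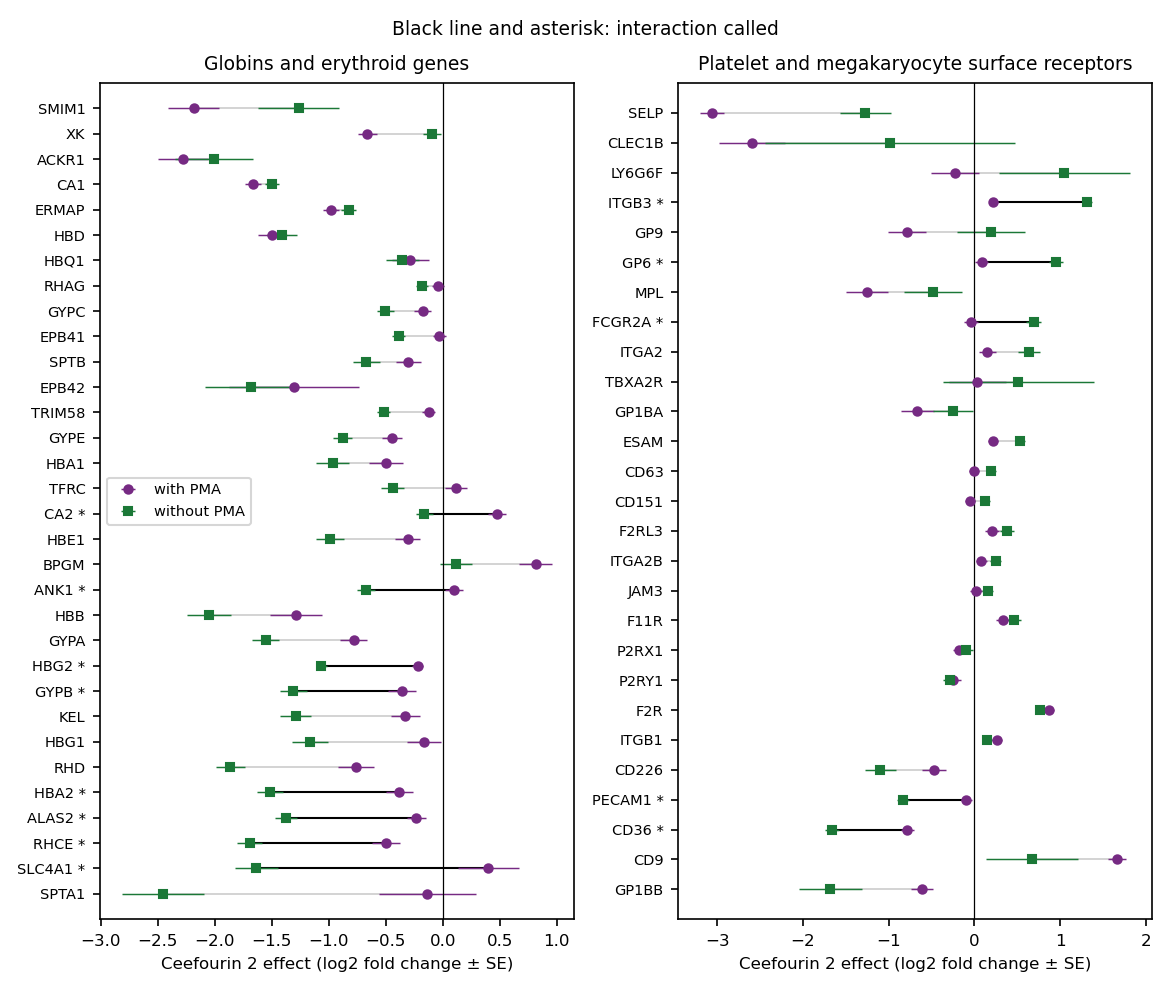
Ceefourin 2 effect (log2 fold change with standard error) with PMA (purple circles) and without PMA (green squares) for erythroid genes (left, 32 of 33 drawn, HBZ left out because 2 of its groups had 0 counts) and platelet surface receptors (right), with the most negative interaction at the top. Black lines and asterisks mark called interactions, 8 on the left and 5 on the right. Most erythroid squares lie left of their circles, and the platelet receptors divide in both directions.

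Platelet and megakaryocyte surface receptors departed from additivity in both directions, with a median of -0.18. Calls were negative for 3 of 27 and positive for 2, against 0.768% and 0.658% of all tested genes. ITGB3, the beta chain of the fibrinogen receptor (chromosome 17, 47253846 to 47311816), had 1081 and 1038 CPM in PMA plus Ceefourin 2, 909.5 and 908 in PMA, 112 and 102 in Ceefourin 2, and 45.4 and 40.6 in untreated cells. All 4 groups were apart from each other. The Ceefourin 2 effect was 0.22 (SE 0.06, adjusted p = 0.0512) with PMA, which did not pass, and 1.31 (SE 0.06, adjusted p = 8.32e-05) without, and the interaction was -1.09 (SE 0.08, adjusted p = 0.00696). Its partner chain ITGA2B, named after its values were seen, had an interaction of -0.17 (SE 0.09, adjusted p = 0.474). GP6, the platelet collagen receptor (-0.87, SE 0.11, adjusted p = 0.0177), and FCGR2A, an Fc receptor with close copies (-0.73, SE 0.12, adjusted p = 0.0356), were the other negative members, also named after their values were seen. In the other direction, CD36, a thrombospondin and lipid receptor, fell with Ceefourin 2 in both backgrounds, with effects of -0.78 (SE 0.07) with PMA and -1.66 (SE 0.08) without, and had an interaction of 0.88 (SE 0.11, adjusted p = 0.0177). PECAM1, an adhesion receptor, had 487 and 497 CPM with both agents and 485 and 570.2 with PMA, against 79.5 and 92.8 with Ceefourin 2 and 147 and 159 in untreated cells, and an interaction of 0.74 (SE 0.09, adjusted p = 0.0165).

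Proteins that act beneath those receptors held 3 negative and 0 positive calls of 31 tested, against 0.768% and 0.658% of all tested genes. FYB1, an adaptor of immune and platelet receptor signalling (chromosome 5, 39105255 to 39274528), had the largest negative interaction of the naming rule. It measured 1.32 and 1.77 CPM in PMA plus Ceefourin 2, 6.38 and 7.52 in PMA, 1.46 and 1.98 in Ceefourin 2, and 0.727 and 1.06 in untreated cells. The PMA group was high, the untreated group was lowest, and the groups with Ceefourin 2 overlapped. The Ceefourin 2 effect was -2.18 (SE 0.15, adjusted p = 0.00045) with PMA and 0.94 (SE 0.17, adjusted p = 0.0174) without, an interaction of -3.12 (SE 0.22, adjusted p = 0.00696). PLEK (pleckstrin), a protein kinase C substrate of platelets, had 199 and 205 CPM in PMA plus Ceefourin 2, 531 and 669 in PMA, 69.7 and 58.3 in Ceefourin 2, and 97.6 and 94.4 in untreated cells. It fell in both backgrounds, and more with PMA (interaction -0.99, SE 0.17, adjusted p = 0.0416). RGS18, which limits G protein signalling in platelets, had an interaction of -0.97 (SE 0.16, adjusted p = 0.0384).

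Cytoskeletal and adhesion genes were divided. Among 32 cytoskeletal genes, 1 was called positive and 3 negative, against 0.658% and 0.768% of all tested genes. TUBB1, the tubulin of platelets and mature megakaryocytes, had 46.7 and 83.5 CPM in PMA plus Ceefourin 2, 62.6 and 118 in PMA, 0.109 and 0.354 in Ceefourin 2, and 0.831 and 2.76 in untreated cells. Replicates differed widely in every group, with replicate 2 the higher in each, and the interaction of 2.48 (SE 0.36, adjusted p = 0.0258) had an adjusted p of 0.627 without the block. TUBB3, a tubulin of neurons, went the other way with -1.53 (SE 0.24, adjusted p = 0.0309), and the actin crosslinker ACTN1 had -0.57 (SE 0.09, adjusted p = 0.0351). TUBB6 (-0.58, SE 0.10), the fourth of the called cytoskeletal genes, was named after its values were seen. Of 32 integrin and matrix genes, 2 were called positive and 1 negative, beside the same shares of all tested genes (0.658% and 0.768%). ITGB7, an integrin beta chain of leukocytes, had 29.7 and 24.6 CPM in PMA plus Ceefourin 2, 24.8 and 21.8 in PMA, 0.608 and 0.951 in Ceefourin 2, and 3.49 and 3.92 in untreated cells and an interaction of 2.48 (SE 0.27, adjusted p = 0.0127). ITGAM, the integrin alpha chain of monocytes and granulocytes, had 6.13 and 5.30 CPM with both agents and 3.76 and 3.20 with PMA, against 14.8 and 19.8 with Ceefourin 2 and 53.6 and 50.8 in untreated cells. Its interaction was 2.29 (SE 0.23, adjusted p = 0.0111). Among 10 tested monocyte and macrophage markers it was the only one called, where 1.43% of all tested genes were. The 16 genes of that list, 3 of them at 0 in all libraries, summed to 493.9 and 564 CPM in PMA plus Ceefourin 2, 557 and 623 in PMA, 210.4 and 237 in Ceefourin 2, and 325 and 329 in untreated cells, and their part in the result was not tested. Most of each sum was CD68, a lysosomal protein, with 472 and 541 CPM in PMA plus Ceefourin 2, 517 and 576 in PMA, 152 and 179.6 in Ceefourin 2, and 167 and 189.6 in untreated cells. MS4A6A, another member, was higher without PMA, with 2.03 and 2.24 CPM in PMA plus Ceefourin 2, 4.75 and 5.47 in PMA, 39.1 and 31.7 in Ceefourin 2, and 96.3 and 78.6 in untreated cells. CD44, the hyaluronan receptor, had -0.60 (SE 0.08, adjusted p = 0.0182).

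**Figure D5:**
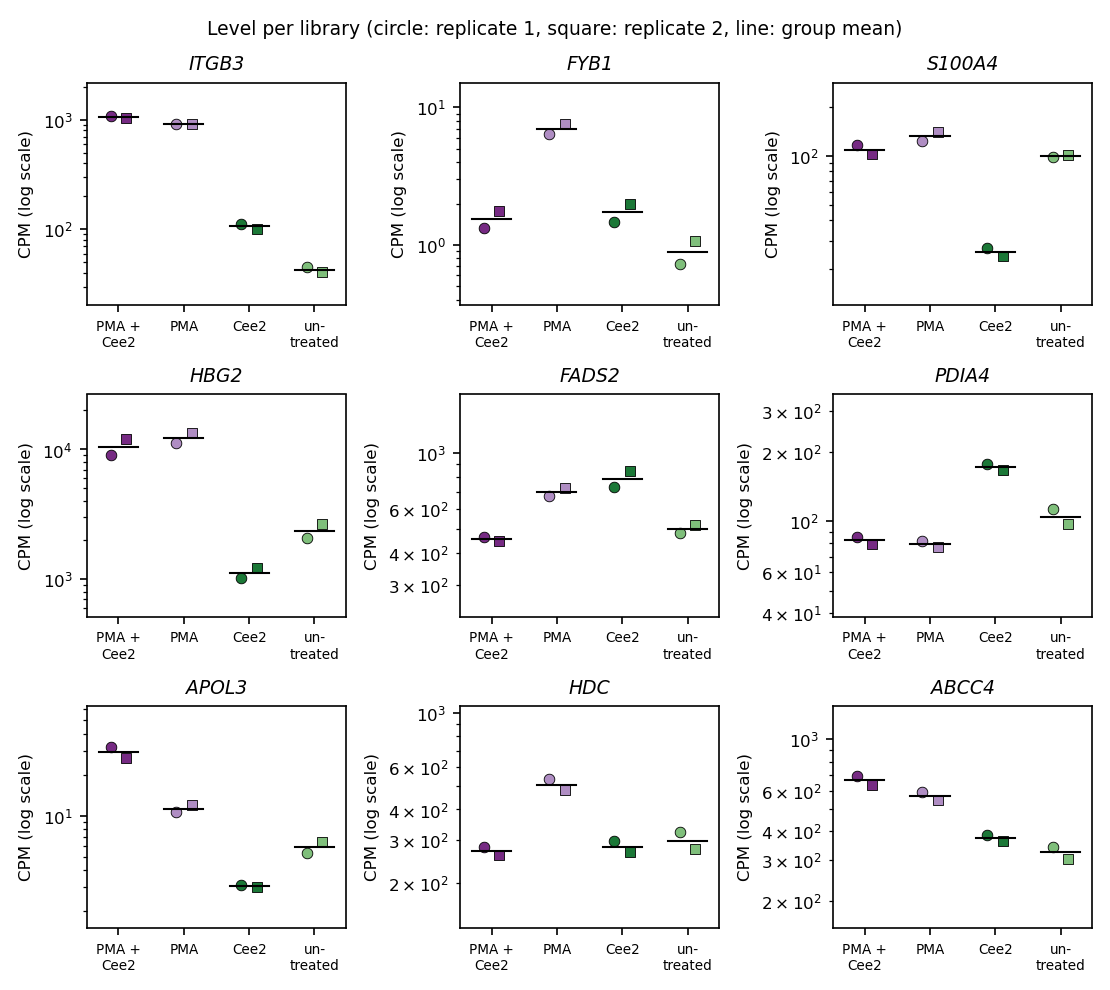
Level in each library (CPM, log axis) of 9 genes, by group, with circles for replicate 1, squares for replicate 2 and a line at the group mean. Ceefourin 2 (Cee2) moved FADS2, FYB1 and APOL3 in opposite directions with and without PMA, moved ITGB3, HBG2, S100A4 and PDIA4 mainly without PMA, and moved HDC mainly with it, while the steps of ABCC4 were alike.

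Transcription factors of the megakaryocytic and erythroid lineages had 1 positive and 4 negative calls of 31, against 0.658% and 0.768% of all tested genes. Their median was 0.05. MYB, a factor of proliferating progenitors, had 135 and 117 CPM in PMA plus Ceefourin 2, 200.1 and 179 in PMA, 221 and 183 in Ceefourin 2, and 214 and 189 in untreated cells. Both libraries of PMA plus Ceefourin 2 lay below all 6 others. Ceefourin 2 lowered MYB with PMA (-0.59, SE 0.05, adjusted p = 0.00109), its effect without PMA was -0.00 (SE 0.05, adjusted p = 0.998), and the interaction was -0.59 (SE 0.07, adjusted p = 0.0181). GFI1B, a repressor needed for both lineages, had -0.42 (SE 0.07, adjusted p = 0.0356), with a higher replicate 2 in every group and an adjusted p of 0.893 without the block. ERG, an ETS factor of megakaryocytes and endothelium, rose with PMA and fell without it, an interaction of 0.75 (SE 0.10, adjusted p = 0.02). RUNX1 (-0.53, SE 0.09, adjusted p = 0.0388) and GFI1 (-0.80, SE 0.14, adjusted p = 0.0449) were also negative and were named after their values were seen, as was the erythroid and megakaryocytic factor GATA1 (0.05, SE 0.07, adjusted p = 0.859).

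Mast cell and basophil genes, which MEG-01 cells also transcribe, had 4 negative and 0 positive calls of 15 tested (0.768% and 0.658% of all tested genes). The list was divided, with 9 negative and 6 positive values (median -0.32). The tryptases and CMA1, which define mast cells, were low or at 0, with CMA1 at 0 in all libraries and TPSAB1 between 0.0779 and 2.66 CPM. The tryptase values were positive and did not pass, at 0.86 (SE 0.58, adjusted p = 0.581) for TPSAB1 and 1.38 (SE 0.53, adjusted p = 0.298) for its near copy TPSB2, both named after their values were seen. HDC, the enzyme that makes histamine (chromosome 15, 50241947 to 50266026), had 279 and 259 CPM in PMA plus Ceefourin 2, 534 and 480.0 in PMA, 296 and 266 in Ceefourin 2, and 322 and 274 in untreated cells. The PMA group was the high one and the other 3 overlapped. The Ceefourin 2 effect was -0.91 (SE 0.05, adjusted p = 0.000256) with PMA and -0.08 (SE 0.05, adjusted p = 0.39) without, and the interaction was -0.83 (SE 0.07, adjusted p = 0.00877). ENPP3, a surface enzyme of basophils, had 114 and 139.7 CPM with both agents and 185 and 204 with PMA, against 95.2 and 106 with Ceefourin 2 and 95.1 and 108 in untreated cells (interaction -0.61, SE 0.08, adjusted p = 0.0202). CPA3, the mast cell carboxypeptidase, had -0.76 (SE 0.12, adjusted p = 0.0356), with a higher replicate 2 in every group and an adjusted p of 0.922 without the block. FCER1A, the alpha chain of the IgE receptor, named after its values were seen, had 28.3 and 40.6 CPM with both agents and 208 and 293 with PMA, against 22.7 and 20.6 with Ceefourin 2 and 62.4 and 62.1 in untreated cells. It fell in both backgrounds and further with PMA (interaction -1.34, SE 0.23, adjusted p = 0.0398).

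S100 genes, which encode small calcium-binding proteins, had 2 positive and 0 negative calls of 10 (0.658% and 0.768% of all tested genes). They had a median of 0.49 and 9 positive values. S100A4 (chromosome 1, 153543613 to 153550136) had 116 and 102 CPM in PMA plus Ceefourin 2, 123 and 139.5 in PMA, 27.2 and 24.1 in Ceefourin 2, and 97.4 and 102 in untreated cells. The Ceefourin 2 libraries lay below all 6 others. Its effect was -0.27 (SE 0.09, adjusted p = 0.126) with PMA and -1.96 (SE 0.10, adjusted p = 0.000153) without, an interaction of 1.68 (SE 0.14, adjusted p = 0.00696) that was also called without the block. S100A6, its neighbour on chromosome 1, had 958 and 936 CPM in PMA plus Ceefourin 2, 690.1 and 670.2 in PMA, 136 and 158 in Ceefourin 2, and 265 and 338 in untreated cells, so that it rose with PMA (0.48, SE 0.10, adjusted p = 0.0271) and fell without it (-1.03, SE 0.10, adjusted p = 0.00164), an interaction of 1.51 (SE 0.14, adjusted p = 0.00969).

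Interferon-stimulated genes had 3 positive and 0 negative calls of 38 (0.658% and 0.768% of all tested genes), with a median of 0.28. APOL3 (chromosome 22, 36140330 to 36166177) had 31.8 and 26.4 CPM in PMA plus Ceefourin 2, 10.6 and 12.0 in PMA, 3.10 and 3.01 in Ceefourin 2, and 5.34 and 6.47 in untreated cells. No groups overlapped. APOL3 had a Ceefourin 2 effect of 1.36 (SE 0.13, adjusted p = 0.00155) with PMA and -0.95 (SE 0.15, adjusted p = 0.0109) without, an interaction of 2.32 (SE 0.20, adjusted p = 0.00875), and this gene was the other call without the block. APOL1, a trypanolytic apolipoprotein of the same gene cluster, also rose with PMA and fell without it (interaction 1.20, SE 0.10, adjusted p = 0.00696). IFIT2, an antiviral RNA-binding protein gene, had 1.31 (SE 0.22, adjusted p = 0.0391). Antigen presentation genes had 0 of 22 called by edgeR and 0 by DESeq2 (6 at an unadjusted p below 0.05 in edgeR, where 14.1% of all tested genes were), and the member with the smallest p, ERAP2, had 0.89 (SE 0.25, adjusted p = 0.165).

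Genes of cyclic nucleotide signalling, whose messengers ABCC4 exports, had 3 negative and 0 positive calls of 33, against 0.768% and 0.658% of all tested genes (median of the list -0.10). PTGER4, a prostaglandin E receptor that raises cyclic AMP, had 1.40 and 1.79 CPM in PMA plus Ceefourin 2, 6.63 and 7.61 in PMA, 0.545 and 0.516 in Ceefourin 2, and 0.52 and 0.457 in untreated cells. The PMA group was high, and the Ceefourin 2 effect was -2.15 (SE 0.17, adjusted p = 0.000591) with PMA and 0.13 (SE 0.24, adjusted p = 0.795) without, an interaction of -2.28 (SE 0.29, adjusted p = 0.0182). ADCY6, an adenylate cyclase, fell with PMA (-0.48, SE 0.08, adjusted p = 0.013) and rose without it (0.52, SE 0.09, adjusted p = 0.0124), an interaction of -1.0 (SE 0.12, adjusted p = 0.0154). PRKAR2B, a regulatory subunit of protein kinase A, had 108 and 131 CPM in PMA plus Ceefourin 2, 283 and 303 in PMA, 64.9 and 59.4 in Ceefourin 2, and 82.9 and 85.0 in untreated cells and an interaction of -0.86 (SE 0.13, adjusted p = 0.0266). Target genes of cyclic AMP had 0 of 19 called by edgeR and 2 by DESeq2, which called 4.25% of all tested genes. In edgeR 3 of the 19 had an unadjusted p below 0.05, against 14.1% of all, the smallest p being that of the clock gene PER1, listed under AC129492.1 (-0.46, SE 0.12, adjusted p = 0.129). Among 24 ABC transporters, ABCG2, a multidrug exporter, had 5.20 and 6.52 CPM in PMA plus Ceefourin 2, 1.59 and 1.66 in PMA, 7.98 and 8.75 in Ceefourin 2, and 6.38 and 5.99 in untreated cells, a rise with PMA of 1.84 (SE 0.14, adjusted p = 0.000614) and an interaction of 1.41 (SE 0.19, adjusted p = 0.0209). The drug exporter ABCB1 (P-glycoprotein) fell with PMA (-0.44, SE 0.06, adjusted p = 0.0063), was 0.10 (SE 0.07, adjusted p = 0.421) without, and had an interaction of -0.54 (SE 0.09, adjusted p = 0.0395).

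Growth factor and cell cycle genes included several that rose in both backgrounds by unequal ratios. CDKN1A, the cyclin-dependent kinase inhibitor p21, had 273 and 296 CPM in PMA plus Ceefourin 2, 171 and 198 in PMA, 21.3 and 17.1 in Ceefourin 2, and 5.13 and 5.77 in untreated cells. It rose by 0.63 (SE 0.11, adjusted p = 0.0162) with PMA and by 1.82 (SE 0.14, adjusted p = 0.000678) without, an interaction of -1.19 (SE 0.18, adjusted p = 0.0274). NRP1, a co-receptor of vascular endothelial growth factor, had 90.1 and 75.4 CPM with both agents and 46.2 and 35.5 with PMA, against 13.0 and 10.2 with Ceefourin 2 and 2.89 and 2.12 in untreated cells (interaction -1.19, SE 0.11, adjusted p = 0.00969). EREG, a ligand of the epidermal growth factor receptor, had -0.49 (SE 0.09, adjusted p = 0.0428). KDR, the main receptor for vascular endothelial growth factor, went the other way: it had 106 and 111 CPM in PMA plus Ceefourin 2, 30.2 and 32.6 in PMA, 89.8 and 93.0 in Ceefourin 2, and 42.1 and 46.8 in untreated cells, rose by 1.78 (SE 0.06) with PMA and 1.04 (SE 0.06) without, and had an interaction of 0.74 (SE 0.08, adjusted p = 0.0127). E2F2, a cell cycle factor, had 0.70 (SE 0.12, adjusted p = 0.0452), with a higher replicate 2 in every group and an adjusted p of 0.876 without the block. Of 41 DNA replication genes and 40 mitosis genes, 0 were called by edgeR and 1 of each by DESeq2 (4.25% of all tested genes). In edgeR 4 and 1 had an unadjusted p below 0.05, against 14.1% of all, and the smallest p belonged to MCM3 (0.42, SE 0.09, adjusted p = 0.0772) and CDC20 (-0.40, SE 0.12, adjusted p = 0.168).

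The positive end of the naming rule also held genes that are mostly in no list. NLRC3, a NOD-like receptor family member that dampens innate signalling, had 9.97 and 10.4 CPM in PMA plus Ceefourin 2, 5.90 and 6.38 in PMA, 1.03 and 1.43 in Ceefourin 2, and 4.95 and 4.03 in untreated cells and the largest interaction of the rule, 2.60 (SE 0.24, adjusted p = 0.00969). It rose with PMA and fell without it, and no groups overlapped. NYNRIN had the same form (interaction 2.13, SE 0.25, adjusted p = 0.0154). CD52, a small lymphocyte surface glycoprotein (2.00, SE 0.24, adjusted p = 0.0165), SELPLG, the P-selectin ligand of leukocytes (1.98, SE 0.23, adjusted p = 0.0154), and LPXN, a focal adhesion adaptor (1.76, SE 0.25, adjusted p = 0.0252), had effects without PMA of -2.86 (SE 0.20) for CD52, -2.09 (SE 0.15) for SELPLG and -1.55 (SE 0.18) for LPXN, all falls. CD52 also fell with PMA (-0.86, SE 0.13, adjusted p = 0.0085), while SELPLG (-0.11, SE 0.18) and LPXN (0.21, SE 0.18) did not pass there. SELPLG had 3.78 and 4.10 CPM with both agents and 4.37 and 4.02 with PMA, against 12.0 and 18.6 with Ceefourin 2 and 59.8 and 69.1 in untreated cells. RGS9, a regulator of G protein signalling, rose by 2.29 (SE 0.15, adjusted p = 0.000435) with PMA, with 0.64 (SE 0.18, adjusted p = 0.0801) without (interaction 1.65, SE 0.24, adjusted p = 0.0258). PLAAT4, a phospholipase-related growth suppressor, had a mean under 0.1 CPM in the Ceefourin 2 group and had 2.55 (SE 0.43, adjusted p = 0.0398), with 5.77 and 6.05 CPM with both agents and 3.05 and 3.26 with PMA, against 0.0467 and 0.0967 with Ceefourin 2 and 0.249 and 0.212 in untreated cells.

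The negative end held receptors and a chemokine that were highest in the PMA group. CCL23, a chemokine of myeloid cells, had 2.88 and 3.46 CPM in PMA plus Ceefourin 2, 18.3 and 21.5 in PMA, 0.0935 and 0.113 in Ceefourin 2, and 0.0831 and 0.163 in untreated cells. The Ceefourin 2 effect on CCL23 was -2.65 (SE 0.12, adjusted p = 0.000106) with PMA and -0.29 (SE 0.38, adjusted p = 0.792) without, and the interaction was -2.37 (SE 0.42, adjusted p = 0.0457). AVPR1A, a vasopressin receptor, had 4.14 and 4.04 CPM with both agents and 15.6 and 13.9 with PMA, against 0.467 and 0.499 with Ceefourin 2 and 0.395 and 0.294 in untreated cells (interaction -2.35, SE 0.26, adjusted p = 0.013). The orphan receptor GPR85 (-1.89, SE 0.14, adjusted p = 0.00696), TEX9 (-1.90, SE 0.30, adjusted p = 0.033), the calcium buffer CALB1 (-1.75, SE 0.25, adjusted p = 0.0262) and FCGR1B, a near copy of FCGR1A (-1.64, SE 0.29, adjusted p = 0.0457), also had a called fall only with PMA. Their effects without PMA did not pass, at -0.33 (SE 0.10) for GPR85, -0.27 (SE 0.24) for TEX9, 0.72 (SE 0.22) for CALB1 and 0.52 (SE 0.25) for FCGR1B. WNT11, a WNT ligand, had 8.96 and 18.6 CPM in PMA plus Ceefourin 2, 12.3 and 27.5 in PMA, 5.44 and 6.27 in Ceefourin 2, and 1.56 and 2.45 in untreated cells, a rise of 1.60 (SE 0.25, adjusted p = 0.00948) without PMA and an interaction of -2.11 (SE 0.32, adjusted p = 0.029). HSPA6, an inducible heat shock gene (-1.51, SE 0.18, adjusted p = 0.0154), and NCAM1, a cell adhesion molecule (-1.39, SE 0.13, adjusted p = 0.0104), likewise rose only without PMA. Among 19 heat shock genes HSPA6 was the only one called, where 1.43% of all tested genes were.

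Some functions that responded to Ceefourin 2 showed no departure from additivity that edgeR called. Aryl hydrocarbon receptor genes had 7 of 12 members raised and 0 lowered in each background, and 0 called interactions by edgeR. All tested genes had 4.74% raised and 3.82% lowered with PMA, and 4.66% and 3.6% without. DESeq2 called 3 of the 12, against 4.25% of all tested genes, and 4 had an unadjusted p below 0.05 in edgeR, against 14.1% of all. The cytochromes CYP1B1 and CYP1A1, induced by that receptor and named after their values were seen, rose by 2.21 (SE 0.09) and 2.80 (SE 0.25) with PMA and by 2.62 (SE 0.09) and 2.87 (SE 0.27) without. AHRR, the repressor of the receptor, which the files list under 2 identifiers (ENSG00000286169.1 is given), had the smallest p of the list, with 58.8 and 48.8 CPM in PMA plus Ceefourin 2, 24.9 and 20.5 in PMA, 10.3 and 8.38 in Ceefourin 2, and 1.56 and 2.07 in untreated cells and an interaction of -1.09 (SE 0.21, adjusted p = 0.0582). Lists with a single call included lysosomal genes (29 tested), with the beta-glucuronidase GUSB (-0.57, SE 0.10, adjusted p = 0.0445). Others were glycolysis (28 tested), with the pyruvate dehydrogenase kinase PDK1 (-0.56, SE 0.09, adjusted p = 0.0364), and the BCL2 family (18 tested), with the mitophagy receptor BNIP3L (0.89, SE 0.10, adjusted p = 0.0127). With 1.43% of all tested genes called, a single call in lists of this size is not a result about the list. Of the 20 lists without an edgeR call, DESeq2 called members in 9: heme and iron metabolism (5 of 27), aryl hydrocarbon receptor targets (3), the MYC network (3 of 35), NRF2 antioxidant genes (3 of 26), cyclic AMP targets (2), and 1 each in DNA replication, mitosis, eicosanoid synthesis and the NF-kB pathway. Nor were the other 11 shown to be additive, since a p that misses the threshold does not show equal effects.

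The sign of the departure also depended on the scale for some genes. On linear CPM, 7 of the 114 positive genes and 9 of the 133 negative ones had the opposite sign. ITGB3 gained 151 CPM with PMA and 63.6 CPM without, a linear departure of 87.3 CPM against a log2 interaction of -1.09. CDKN1A gained 100.1 CPM with PMA and 13.7 CPM without, and NRP1, EREG and MMRN1, a platelet granule protein gene, also changed sign. Among the positive genes, CD36 had a linear departure of -38.8 CPM, HBG2 of -430.3 CPM, DHRS3, a retinaldehyde reductase, of -42.5 CPM, and TUBB1 and CD52 also changed sign. FADS2 (linear departure -532 CPM), S100A4 (51.2 CPM), APOL3 (20.6 CPM) and FYB1 (-6.24 CPM) kept theirs.

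Promoter letters were also counted for 6 short motifs in the promoters of 85 positive and 104 negative called genes that RefSeq matched, against 11112 of 17314 tested genes, on both strands. The core of the cyclic AMP response element, CGTCA, occurred in 8.24% of positive and 24% of negative genes, against 33.7% of all. The AP-1 motif TGANTCA, bound by Fos and Jun factors, occurred in 11.8% and 1.92%, against 4.72% of all, and the GATA motif AGATAA in 9.41% and 13.5%, against 5.58%. The aryl hydrocarbon receptor core GCGTG occurred in 40% and 48.1%, against 50.1% of all, the E-box CACGTG in 3.53% and 7.69%, against 10.1%, and the ETS motif GGAAGT in 24.7% and 24%, against 27.6%. A sterol element, also added after the data were seen, was searched as TCAC, any base, then CCAC. It occurred in 1 of 28 promoters of the sterol list (3.57%) and in 1.07% of all. Such shares move with base composition and were not tested.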

How the data were processed

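Polyadenylated RNA was sequenced as paired-end, stranded libraries, per the labels' protocols. The authors deposited RSEM expected counts per gene and TPM. Alignment with STAR 2.7 and estimation with RSEM 1.3.1 on hg38 are per the submitters' processing notes, and no annotation release is named there. Of the expected counts, 7.05% to 7.83% per library were not whole and were rounded. Genes passing filterByExpr in edgeR 4.0.16 (R 4.3.3) were TMM-scaled, and a quasi-likelihood model with 4 group means and the replicate number as a block was fitted to all 8 libraries. Standard errors were derived from the fold change and its F statistic (|log2 fold change| / √F). Adjusted p-values are Benjamini-Hochberg over all 17314 genes. Alternatives used DESeq2 1.42.0 and limma 3.58.1, the last on voom weights and on log2 of the deposited TPM plus a pseudocount. The naming rule took ABCC4, the 12 largest called interactions of protein-coding genes in each direction with 1 group mean of at least 5 CPM, none under 0.1 CPM and the same sign in both replicate numbers, up to 4 genes in each direction that miss only the 0.1 CPM floor, and from each list up to 3 called genes of smallest p, or the gene of smallest p. Gene lists and members were chosen with earlier results of these data known. Positions are from GENCODE v29 and promoters from RefSeq GRCh38.p14. Some genes are not reported here by name, although counts and medians include them. Scripts were tested on simulated data.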

Additional observations from a re-analysis of the deposited data

Results flagged for a closer look

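In 31 genes the Ceefourin 2 effect was called in opposite directions in the 2 backgrounds, with a called test of the difference, and 30 of them are given here as log2 interactions. A rise with PMA and a fall without it occurred in 20, among them NLRC3 2.60, PLAAT4 2.55, APOL3 2.32, NYNRIN 2.13, THBD 1.56, RIPOR2 1.52, S100A6 1.51, APOL1 1.20, GPAT3 1.16, GNG2 1.09, ID1 0.95, LIX1L 0.94, CLU 0.92, BNIP3L 0.89, TPCN1 0.76, PRXL2A 0.76, ERG 0.75, IFNGR2 0.75 and MARCH8 0.70. A fall with PMA and a rise without it occurred in 11: FYB1 -3.12, PLXDC2 -1.34, FADS2 -1.27, ARAP3 -1.20, ADCY6 -1.0, RXFP1 -0.88, NUCB2 -0.81, FADS1 -0.78, PIEZO2 -0.76, LONRF1 -0.66 and P4HB -0.42. Of these, the thrombin cofactor THBD had 201 and 223 CPM with both agents and 137 and 114 with PMA, against 5.19 and 3.88 with Ceefourin 2 and 9.77 and 6.09 in untreated cells. APOL3 was the only one of the 31 still called without the replicate block.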

How the results depend on the processing

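The number of called interactions depended on the processing, while the sign of each of the 247 did not in any of 18 alternatives. All alternatives used the same libraries or part of them, so a kept sign is not independent support. Without the replicate block 2 positive and 0 negative genes were called. The numbers were 110 and 161 with size factors of the DESeq2 type, 291 and 444 with DESeq2, 109 and 130 with limma-voom, 125 and 143 where 2 libraries had to reach 1 CPM, 298 and 424 with no filter beyond 1 count, 123 and 142 with mitochondrial transcripts left out, 31 and 33 on log2(TPM + 1) in limma, and 14 and 11 on log2(TPM + 0.1). Leaving out each library in turn gave 0 to 102 positive and 0 to 216 negative calls, with 0 of both without either untreated library. With both PMA-treated libraries numbered 1 left out, a fit without the block called 0 and 0 (660 at an unadjusted p below 0.05). The labels do not say what a replicate number marks. Deviations of same-numbered libraries correlated between 0.137 and 0.363 over 6 pairs of groups, which is a hint from the data and not from the design. Since neither fit without an untreated library called any gene, no named gene could be called in every fit without 1 library. The interaction of ABCC4 had the other sign with size factors of the DESeq2 type (-0.00898), DESeq2 (-0.00899), no filter (-0.00488), log2(TPM + 1) (-0.0967) and log2(TPM + 0.1) (-0.0982), and ranged between -0.0444 and 0.0368 in fits without 1 library. Fits without 1 library also turned the sign of MT-ND6 (range -0.21 to 1.05) and COL3A1 (range -0.56 to 2.23), and the cause was not tested. With 2 libraries a group and 3 residual degrees of freedom, genes that missed the threshold cannot be called additive.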
